A study of Caenorhabditis elegans with 2 samples.

Results

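FLT-1 binding was examined at 255 microRNA (miRNA) genes of Caenorhabditis elegans. These are the genes that Ensembl release 115 annotates with the biotype miRNA on the nuclear chromosomes of WBcel235 (ce11), leaving out the 6 genes of the mir-51 family, out of 46890 nuclear genes in all. The members lay at 206 loci, where genes on 1 strand less than 10 kb apart were counted as 1 locus. The data were peak lists from chromatin immunoprecipitation with sequencing (ChIP-seq) of whole early embryos, in 2 biological replicates of 1 group, with no second condition. The strain, OP797, carried the integrated fosmid transgene wgIs797, in which flt-1 was joined to TY1, EGFP and 3xFLAG tags and unc-119(+) served as marker, in an unc-119(tm4063) background. Embryos aged 1 hour were obtained by egg bleaching, and chromatin fragments of 200 to 800 bp were precipitated with antibody against GFP. The protein measured was therefore tagged FLT-1 made from a transgene, and the control experiment that the labels mention was not used here.

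FLT-1, also named BAZ-2, belongs to the BAZ2 group of chromatin proteins, which carry a bromodomain that binds acetylated histone tails and a PHD finger. miRNA genes are transcribed as long precursors, from their own promoter or from that of a host gene, and cut to hairpins and then to short RNAs of which one arm enters an Argonaute protein. The seed, the stretch from base 2 to base 8 of the mature RNA, selects target messenger RNAs, and genes with a common seed form a family. In this worm the mir-35 family is known for its role in embryonic development, and lin-4 and let-7 for the timing of larval development.

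The mature RNAs of the genes beside FLT-1 peaks are shown first, since they tell which of the genes belong to 1 family. They were read from the RefSeq annotation and genome of WBcel235, in which all 255 members were matched by WormBase identifier and 254 had at least 1 mature arm, 446 arms in total. Each is written 5′ to 3′ with the seed in capitals. All 7 genes of the mir-35 to mir-41 cluster had the same seed in the 3p arm, which among the members was found elsewhere in mir-42 alone.
mir-35 3p: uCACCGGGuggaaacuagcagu
mir-36 3p: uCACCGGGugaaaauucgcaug
mir-37 3p: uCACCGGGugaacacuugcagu
mir-38 3p: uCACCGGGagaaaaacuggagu
mir-39 3p: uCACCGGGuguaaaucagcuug
mir-40 3p: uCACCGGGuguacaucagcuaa
mir-41 3p: uCACCGGGugaaaaaucaccua

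For a second cluster with a peak, the 5p arms of mir-229 and mir-64 are given, which had a common seed.
mir-229 5p: aAUGACACugguuaucuuuuccaucg
mir-64 5p: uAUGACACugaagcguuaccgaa
Single genes with a peak had other seeds. The seed of mir-90 was also that of mir-50 and mir-62, and bases 2 to 7 of mir-58.1, of the bantam-related mir-58 family, were also found in 6 other members, among them mir-80, mir-81 and mir-82. Bases 2 to 7 of the arms of mir-4936, mir-5549 and mir-8201 were found in no other member.
mir-90 3p: uGAUAUGUuguuugaaugccccu
mir-58.1 3p: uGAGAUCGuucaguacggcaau
mir-4936 3p: uGCUUUGUggcuuugcuggua
mir-5549 5p: cUUGUGAAauuaacgugagu
mir-8201 5p: uCUGGAUCgauaauguaaaccu

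The peaks themselves were of different kinds, and 4 of them show the range. They are given from the RefSeq genome of WBcel235, on the strand of the miRNA genes, with the bases of mature arms in capitals. The peak at II:11537633-11537862 (plus strand) lay over the hairpins of mir-35 and mir-36 and the start of mir-37, and 199 of its 230 bases belonged to hairpins and 95 to mature arms.
mir-35 cluster peak: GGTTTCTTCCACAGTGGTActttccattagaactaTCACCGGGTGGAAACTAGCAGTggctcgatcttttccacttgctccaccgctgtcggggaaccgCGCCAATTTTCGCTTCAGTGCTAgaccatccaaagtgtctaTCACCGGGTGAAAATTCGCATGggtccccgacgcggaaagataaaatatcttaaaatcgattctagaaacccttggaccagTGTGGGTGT
The peak at III:3249099-3249328 (plus strand) held the whole of mir-4936, a gene of 110 bp.
mir-4936 peak: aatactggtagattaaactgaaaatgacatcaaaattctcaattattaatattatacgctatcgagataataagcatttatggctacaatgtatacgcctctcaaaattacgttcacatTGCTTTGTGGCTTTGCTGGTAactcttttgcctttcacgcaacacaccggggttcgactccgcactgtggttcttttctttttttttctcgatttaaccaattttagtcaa
The peak at IV:3232937-3233007 (plus strand) was 71 bp long, lay upstream of mir-58.1 and held no hairpin.
mir-58.1 peak: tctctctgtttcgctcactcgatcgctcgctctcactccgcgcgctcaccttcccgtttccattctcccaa
The peak at III:2171940-2172169 (plus strand) lay upstream of mir-229, mir-64 and mir-65. Near its start it held a run of 19 alternating AC units.
mir-229 peak: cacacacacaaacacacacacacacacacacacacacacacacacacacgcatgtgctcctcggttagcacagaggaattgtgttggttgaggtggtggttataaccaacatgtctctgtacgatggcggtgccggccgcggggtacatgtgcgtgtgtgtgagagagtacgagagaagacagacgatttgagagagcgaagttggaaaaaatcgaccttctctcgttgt

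FLT-1 peaks were found at few of these genes. Counts rest on the pooled thresholded list, 1083 peaks that the authors called from both replicates. A peak was given to a gene when its summit lay within 250 bp of the gene or up to 1000 bp upstream of its 5′ end. A summit within 250 bp was found for 6 of 255 members, or 2.35% (exact 95% Clopper-Pearson interval 0.868 to 5.05), where all nuclear genes had 3.28%. A summit up to 1000 bp upstream was found for 14 members, or 5.49% (3.03 to 9.04), where all nuclear genes had 2.29%. With either placement the members numbered 17, or 6.67% (3.93 to 10.5), where all nuclear genes had 4.4%, but these 17 genes shared 9 peaks at 9 of the 206 loci. Up to 1000 bp downstream of the gene there was a summit for 6 members, or 2.35%, where all nuclear genes had 1.23%. The intervals cover counting error only, and genes of 1 cluster are not independent. No test of a difference was made.

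The shares can be read beside those of other gene classes. Of protein-coding genes, 3.73% had a summit within 250 bp and 3.36% one upstream, and the second value lay within the interval of the members. Protein-coding genes had a median length of 2027 bp and so a wider window than the members, whose median length was 95 bp. Of tRNA genes, as short as the members, 44.3% had a summit within 250 bp, and of snoRNA genes 18.2%. In the mir-51 family, left out of the members, 4 of 6 genes had a summit within 250 bp and 6 of 6 had one upstream. The lowest shares were those of the 15363 piRNA genes, with 0.0781% and 0.423%, which make up part of the value for all nuclear genes.

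**Figure D1:**
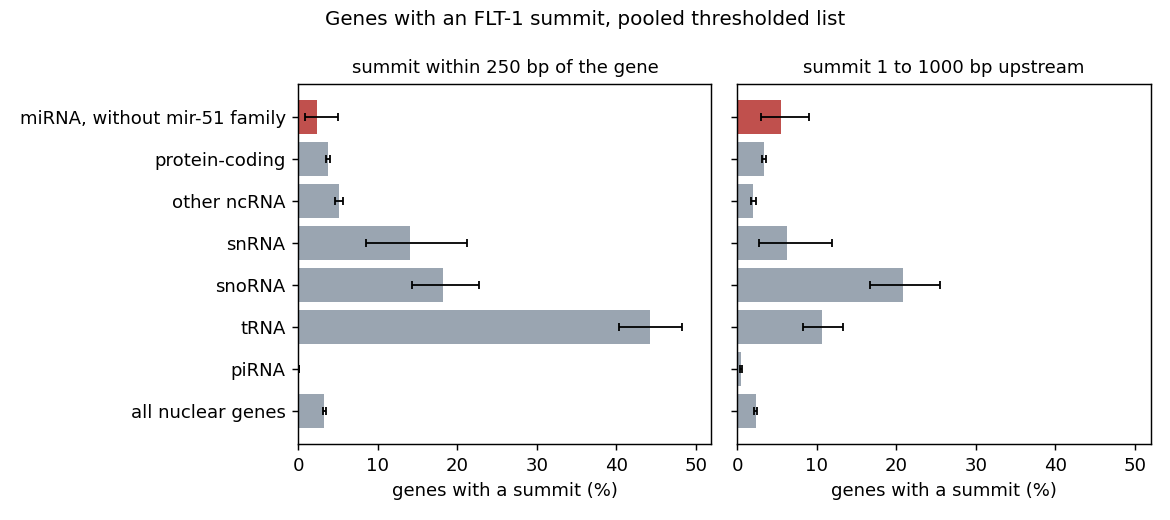
Share of genes with an FLT-1 summit in the pooled thresholded list, in percent, within 250 bp of the gene (left) and 1 to 1000 bp upstream (right), by gene class, with exact 95% intervals for counting error as bars. The members, at 2.35% and 5.49%, lie far below tRNA genes at 44.3% in the left panel.

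Each replicate has its own thresholded list, of 618 nuclear peaks in replicate 1 and 747 in replicate 2. Within 250 bp, 4 members (1.57%) had a summit in replicate 1, where all nuclear genes had 2.22%, and 5 members (1.96%) in replicate 2, where all nuclear genes had 2.35%. Upstream, 4 members (1.57%) had a summit in replicate 1 beside 1.35% of all nuclear genes. Replicate 2 gave 11 members (4.31%) beside 1.57%. Of these 11, 5 were mir-37 to mir-41, whose 1 peak passed the threshold in replicate 2 alone. In both replicate lists 3 members had a summit in 1 of the windows, namely mir-5549, mir-354 and mir-90. Of the other pooled members, mir-4936 and mir-58.1 were listed in replicate 1 alone, and mir-8201 and mir-35 to mir-41 in replicate 2 alone. For mir-8190, mir-229, mir-64 and mir-65 neither replicate list held the peak.

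**Figure D2:**
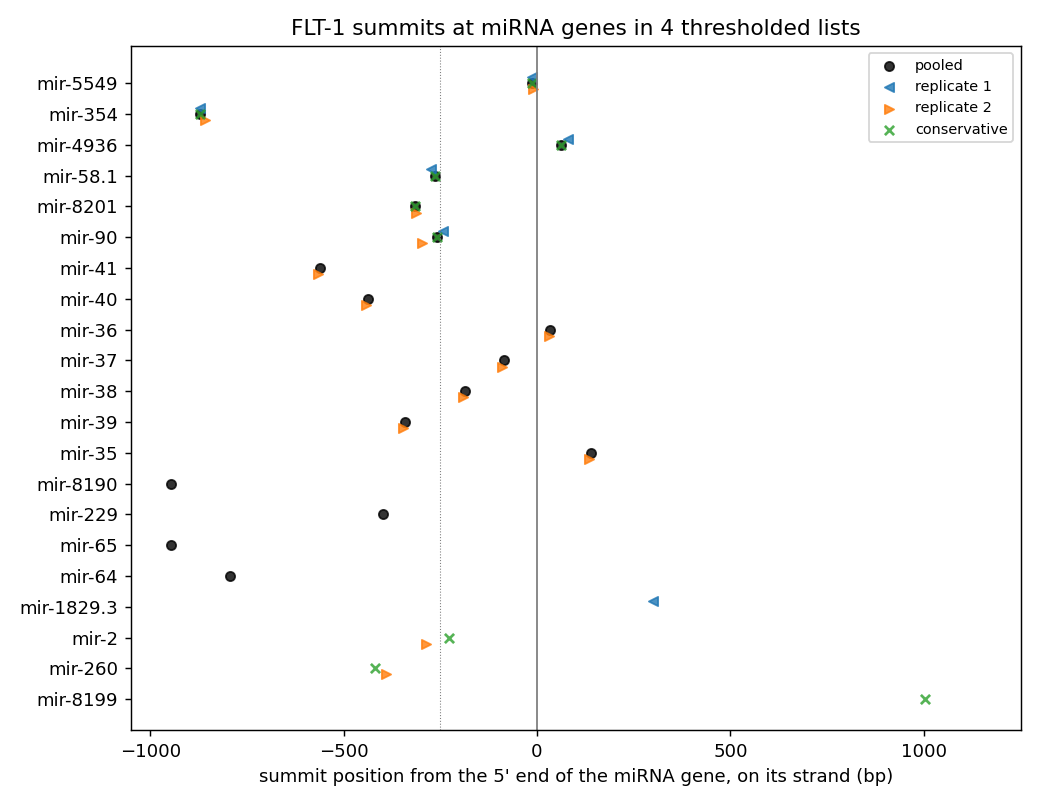
Position of each thresholded summit at the 21 members that had one in any of the 4 thresholded lists, in bp from the 5′ end of the miRNA gene on its own strand (negative is upstream; dotted line at 250 bp). Markers stand for the list, and mir-5549, mir-354 and mir-90 carry the markers of both replicates.

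Signal is the authors' value for a peak, on a scale not given in the sources used, and it is compared within a list. The median over the pooled thresholded list was 75.42, with a range of 3.598 to 780.3. Of the 9 peaks at members, 5 lay above that median and none was among the 100 highest. Below the threshold the ranked lists give an irreproducible discovery rate (IDR) for each entry, a value from 0 to 1. It is low where an entry ranked both high and alike in the sets compared. A high IDR can thus also mark an entry that was weak in both sets. The thresholded lists held entries with an IDR of up to 0.01.

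The leading peak lay at mir-5549, III:6972044-6972154. Its signal was 81.58 in replicate 1 and 75.34 in replicate 2, with IDRs of 0.00012 and 3.44e-05, and it was listed in both. The pooled signal was 160.3, rank 167 of 1083. The summit was 14 bp upstream of the 5′ end of the miRNA gene, which is intergenic. The same summit lay in 2 coding promoters, taken as 500 bp upstream to 200 bp downstream of a start: 387 bp upstream of eef-1A.1, a translation elongation factor gene, and 154 bp upstream of the divergent rfc-4, a gene for a replication factor C subunit. To which of the 3 genes the peak belongs cannot be told apart from its position.

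The other intergenic peak lay over a hairpin, at mir-4936, shown above with its sequence. Its signal was 69.7 in replicate 1 (IDR 0.000134), which listed it, and 30.17 in replicate 2 (IDR 0.0354), which did not. The pooled signal was 97.06, rank 382. The summit fell inside the gene, 63 bp from its first base. The nearest coding start, of Y53G8AL.4, was 278 bp from the summit and no tRNA gene lay closer than 53694 bp.

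The peak of mir-4936 carried a sequence element known from tRNA genes. The B box is the inner promoter element of tRNA genes to which transcription factor TFIIIC binds, and its core was searched as GTTCGANNC on both strands in the 201 bp around each summit. This search was added after the sequence of the peak had been seen. The core was found as GTTCGACTC at III:3249269-3249277, 55 bp from the summit and just past the end of mir-4936, and a run of 4 T began 13 bases after it. It was found in 1 of the 9 peaks at members (11.1%, interval 0.281 to 48.2), in 227 of all 1083 pooled peaks (21%) and in 183 of the 251 peaks within 250 bp of a tRNA gene (72.9%). Gene bodies were searched on the strand of the gene alone, unlike the peaks. There the core stood in 441 of 612 tRNA genes (72.1%) and in 1 of 255 members, mir-4937. That member had a ranked entry of 16.43 within 250 bp (IDR 0.904) and no thresholded peak. With 50 bp past the gene end added, as the core of mir-4936 requires, the core stood in 4 members, mir-4806, mir-4936, mir-4937 and mir-8189. A match describes these letters and shows no binding of a factor.

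Upstream of mir-58.1, inside an intron of phkb-1 on the same strand, the signal was 58.06 in replicate 1 (IDR 0.000384) and 30.84 in replicate 2 (IDR 0.11). Replicate 1 alone listed the peak. The pooled signal was 82.46, rank 473, with the summit 263 bp from the hairpin and 171 bp from the ncRNA gene Y67D8A.6. Of the 8 members of the mir-58 family found, the other 7 had no thresholded peak in either window.

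The peak of mir-8201, IV:6294149-6294378, went the other way between the replicates. Its signal was 32.01 in replicate 1 (IDR 0.118), which did not list it, and 46.02 in replicate 2 (IDR 0.000946), which did, and the pooled signal was 79.54, rank 502. The summit lay 315 bp upstream of the hairpin and 12 bp upstream of the start of its host hil-2, a gene of the linker histone H1 type, in whose intron mir-8201 lies on the same strand. This was 1 of the 3 members with a peak in a coding promoter, beside mir-5549 and mir-354.

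mir-90 had the weakest of the peaks listed in both replicates, at III:8874228-8874457. The signal was 41.17 in replicate 1 (IDR 0.00623) and 31.68 in replicate 2 (IDR 0.00902), and 65.42 in the pooled list, rank 681. The summits lay 242 bp upstream of the gene in replicate 1, 297 bp in replicate 2 and 259 bp in the pooled list, inside an intron of K01F9.2 on the same strand. The 250 bp window thus took mir-90 in replicate 1 and left it out in replicate 2 and in the pooled list. mir-50 and mir-62, with the same seed, had no thresholded summit in either window.

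The mir-35 cluster, which held the most members of any peak, had a low one. In replicate 2 the signal was 37.39 (IDR 0.00745), with the summit 5 bp from the pooled one. In replicate 1 the nearest ranked entry had 22.44 (IDR 0.915), and its summit was 117 bp away. Replicate 1 therefore did not list a peak that replicate 2 listed. The pooled signal was 50.18, rank 985 of 1083, with an IDR of 0.00821, and the conservative list did not hold it.

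The pooled summit fell inside mir-36. It lay within 250 bp of mir-35, mir-36, mir-37 and mir-38, and upstream of mir-37 by 85 bp, of mir-38 by 185 bp, of mir-39 by 341 bp, of mir-40 by 436 bp and of mir-41 by 560 bp. These 7 members therefore rest on 1 peak. The cluster lies in an intron of Y62F5A.9 on the opposite strand, and the ncRNA genes Y62F5A.14 and Y62F5A.16 were 57 and 119 bp from the summit.

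A second pooled peak, II:11535606-11535835, lay 1887 bp upstream of mir-35, outside the 1000 bp window and in another intron of Y62F5A.9. Its signal was 32.69 in replicate 1 (IDR 0.0694), which did not list it, and 32.19 in replicate 2 (IDR 0.00731), which did, and 64.88 in the pooled list. Both replicates had an entry near its summit, at -1997 bp in replicate 1 and -2024 bp in replicate 2 from the summit over mir-36, where the pooled one was at -2027 bp. The eighth gene of the family, mir-42, lies elsewhere and had a ranked entry of 38.33 (IDR 0.141) 211 bp upstream, without a thresholded peak.

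**Figure D3:**
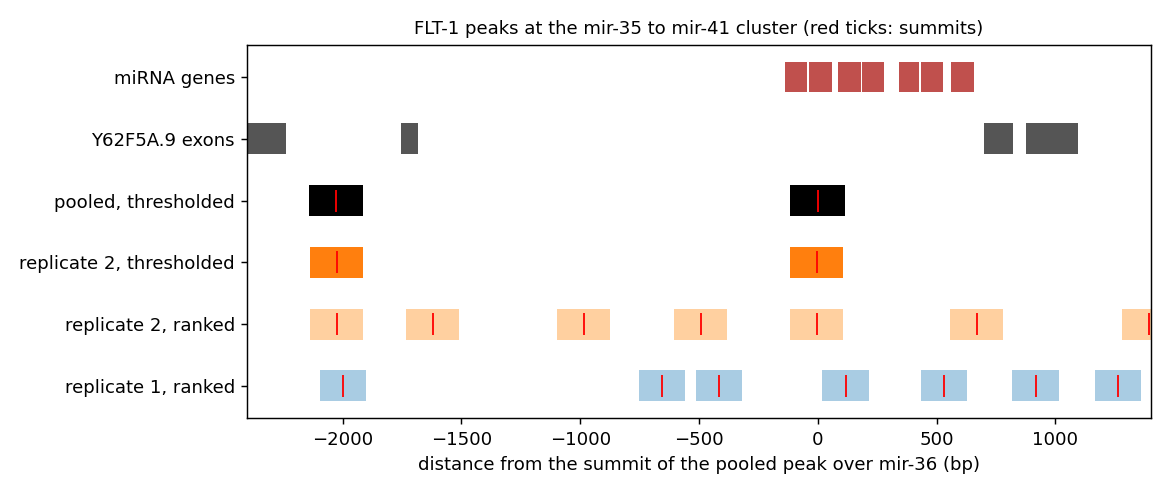
Map of the mir-35 to mir-41 cluster in bp from the summit of the pooled peak over mir-36, with the miRNA genes, the exons of Y62F5A.9 and the entries of each list; red ticks are summits. The thresholded list of replicate 1 has no entry in this window, and its ranked list has entries of 32.69 at -1997 bp and 22.44 at 117 bp.

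The cluster of mir-229, mir-64 and mir-65 had the lowest signal of the 9 peaks. It was 20.35 in replicate 1 (IDR 0.86) and 20.05 in replicate 2 (IDR 0.113), and neither list held it. The pooled signal was 35.89, rank 1063 of 1083, with an IDR of 0.00637. The conservative list did not hold the peak, and the ranked list that compares the replicates with each other gave it an IDR of 0.0705. The summit was 397 bp upstream of mir-229, 793 bp upstream of mir-64 and 947 bp upstream of mir-65, in an intron of gcn-1 on the same strand. mir-66, the next gene of the cluster, lay just outside the window at 1053 bp. Alternating repeats of 8 or more units were found in 2 of the 9 peaks (22.2%, interval 2.81 to 60), with 19 units here and 9 at mir-90. They were found in 35 of 1083 pooled peaks (3.23%). The median longest run was 3 units in both sets. This search was added after the sequences of the peaks had been seen, so the counts describe these peaks only.

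Besides these, 2 peaks lay on chromosome I, at mir-354 and mir-8190. At mir-354 the signal was 47.63 in replicate 1 (IDR 0.00126) and 65.26 in replicate 2 (IDR 5.7e-05), listed in both, and 113.9 in the pooled list, rank 301. The miRNA gene lies in an exon of rps-20, a gene of the small ribosomal subunit, and the summit was 870 bp upstream of it. The summit was 258 bp upstream of rps-20 and 139 bp upstream of the divergent ekl-4, so it lay in the promoters of both. At mir-8190, in an intron of hmr-1, a cadherin gene, on the opposite strand, the signal was 40.37 in replicate 1 (IDR 0.316) and 18.32 in replicate 2 (IDR 0.0126). The replicate 2 entry had its summit 114 bp from the pooled one and outside the 1000 bp window. The conservative list did not hold the peak. The pooled signal was 48.62, rank 1002, with an IDR of 0.00982 and a summit 946 bp upstream, near the edge of both the window and the threshold.

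**Figure D4:**
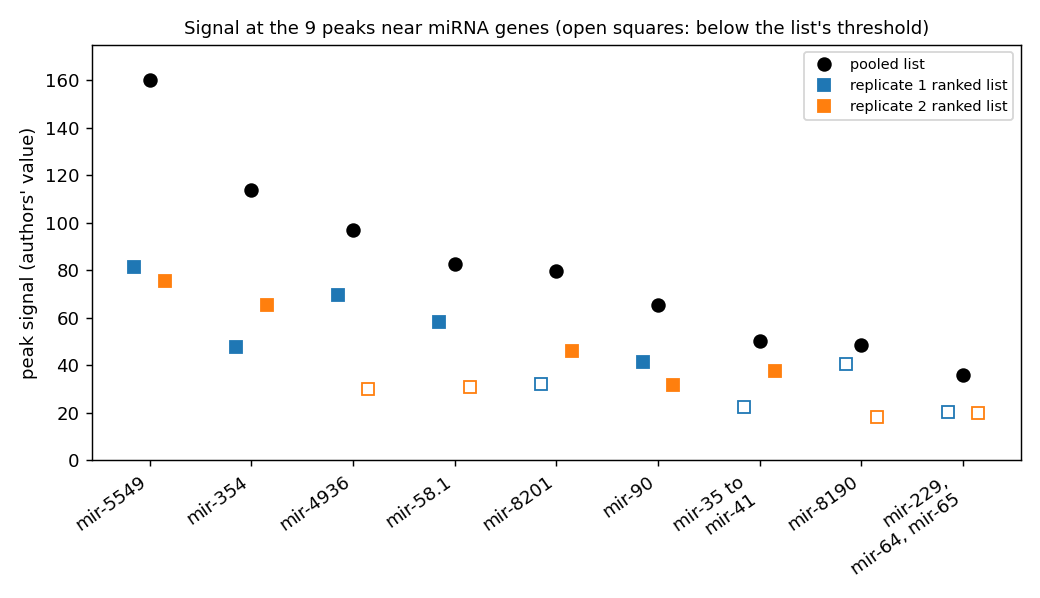
Peak signal (the authors' value) at the 9 pooled peaks near miRNA genes in the pooled list and in the ranked list of each replicate; open squares are entries that the thresholded list of that replicate does not hold. mir-5549, mir-354 and mir-90 have filled squares for both replicates, and the pooled values fall from 160.3 to 35.89.

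The 3 other thresholded lists added 4 members. mir-1829.3, on the X chromosome in an intron of piki-1, had a summit 238 bp away in the replicate 1 list, with a signal of 35.6 (IDR 0.00958) beside 15.9 in replicate 2 (IDR 0.538). That peak lay over the tRNA gene F39B1.t1 and over the ncRNA gene F39B1.5. mir-260 had a summit 418 bp upstream in the conservative list, with 52.48, and a replicate 2 peak of 31.79 (IDR 0.00125). In replicate 1 its ranked entry had 25.14 (IDR 0.886). mir-2, related to the miR-2 family of Drosophila, had a conservative peak of 45.7 and a replicate 2 peak of 36.11 (IDR 0.000368), beside a ranked entry of 33.03 in replicate 1 (IDR 0.0185), in an intron of ppfr-1. mir-8199 had a peak of 5.63 in the conservative list alone, 226 bp from its gene.

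By setting, 149 members (58.4%) were intergenic, 94 (36.9%) intronic and 12 exonic with respect to coding genes of either strand. A pooled peak in either window was found at 2 of 149 intergenic members (1.34%, interval 0.163 to 4.76), mir-5549 and mir-4936. It was found at 14 of 94 intronic members (14.9%, 8.39 to 23.7) and at 1 of 12 exonic ones, mir-354. The shares of all nuclear genes in these settings were not computed. Whether the contrast is particular to the members was therefore not tested. Of the 14 intronic members, 7 were the mir-35 cluster and 3 the mir-229 cluster, so that they stand for 6 peaks. When a host was counted on the same strand alone, the mir-35 cluster and mir-8190 became intergenic. The shares were then 5.59% (10 of 179, interval 2.71 to 10) for intergenic and 8.82% (6 of 68, 3.31 to 18.2) for intronic members, and the intervals overlapped. In the replicate lists the intronic members with a peak numbered 3 in replicate 1 and 10 in replicate 2.

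The median gap from a member to the nearest pooled summit was 31944 bp, with quartiles of 7592 and 80938 bp. It was 45804 bp for intergenic and 22350 bp for intronic members. Just outside the 250 bp window were mir-90 at 259 bp, mir-58.1 at 263 bp, F09A5.15 at 272 bp and mir-8201 at 315 bp. By chromosome, 7 of 49 members on II had a peak, 6 of 27 on III, 2 of 47 on IV and 2 of 33 on I. These members stood for 1 peak on II, 4 on III, 2 on IV and 2 on I. The pooled list held 169, 190, 164 and 170 peaks on these chromosomes in the same order. No member on V (0 of 28, upper bound 12.3%) or X (0 of 71, upper bound 5.06%) had one in the pooled list. Of the 1083 pooled peaks, 144 lay on V and 246 on X. The share of all nuclear genes with a peak was not computed by chromosome, so these peak numbers are no baseline for the members.

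tRNA genes, a class with many FLT-1 peaks, were rarely neighbours of the members. A tRNA gene lay within 1000 bp of 9 members, and none of the 9 had a pooled peak in either window (upper bound 33.6%). Of the 246 others, 17 had one (6.91%, 4.08 to 10.8). None of the 9 peaks at members had a gene of the tRNA, snRNA or snoRNA class within 1000 bp of its summit. Farther out, within 2500 bp of a member, there were 14 other pooled peaks, of which 5 were close (250 bp) to genes for small RNAs of the tRNA, snRNA and snoRNA classes and 3 in a coding promoter. The small RNA gene was a tRNA gene in all 5 cases. Peaks of 157.3 and 315.8 lay over the tRNA genes F22F1.t5 and F22F1.t6. They were 1689 and 2104 bp past the 5′ end of mir-237, a lin-4 relative. A peak of 262.4 lay over the tRNA gene Y59E1B.t2, at 901 bp past the 5′ end of mir-4921. With a coding start within 1000 bp of the gene, 9 of 94 members had a peak (9.57%, 4.47 to 17.4), and without one, 8 of 161 (4.97%, 2.17 to 9.56). In each group these members stood for 5 loci. Members of the mir-35 cluster, which share a peak, fell in both groups, and no test was made.

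The families known from worm development were read as lists of their members. The let-7 family (7 genes, among them let-7, mir-48, mir-84 and mir-241) had no thresholded summit in either window. Its nearest pooled summit was 5986 bp away, from mir-794. The conservative list held a peak of 55.37 at 1866 bp upstream of let-7, outside the window. lin-4 and mir-237 had none either, with 1591 bp to the nearest. The muscle and neuron list, mir-1, mir-124, lsy-6, mir-34 and mir-71, had none, and its nearest pooled summit was 8376 bp away. Over the 14 lists, which hold 57 members, 4 had a summit within 250 bp and 10 upstream, 12 in either window, and of these 12, 7 were the mir-35 cluster, 3 the mir-229 cluster and the others mir-58.1 and mir-90. The mir-2, mir-44, mir-46, mir-49, mir-72, mir-75 and mir-87 families had no pooled thresholded summit in either window.

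The pooled ranked list, with 48126 nuclear entries, reached many more members. Within 250 bp the share was close to that of all nuclear genes, and upstream it was higher than theirs, with no test made. A ranked summit lay within 250 bp of 102 members, or 40% (33.9 to 46.3), where all nuclear genes had 40.7%. In the ranked list of replicate 1 it was 100 members and in that of replicate 2 it was 95. By class, the pooled ranked share within 250 bp was lower for piRNA genes (12.1%) and pseudogenes (34.2%). It was higher for ncRNA (45.6%), protein-coding (60.1%), snoRNA (60.1%) and tRNA genes (75%). Upstream, 144 members (56.5%, 50.1 to 62.6) had a ranked summit, where all nuclear genes had 35%. Up to 1000 bp downstream it was 122 members (47.8%, 41.6 to 54.2), and the share of all nuclear genes there was not computed. Whether the surplus is particular to the upstream side was therefore not tested. Of the ncRNA genes 45.3% and of snoRNA genes 71.7% had a ranked summit upstream, against 39.7% of protein-coding and 23% of piRNA genes. The highest signal within 250 bp had a median of 22.4 over the 102 members, with quartiles of 16.6 and 30.6, where the median of all entries was 19.9. No entry of the pooled ranked list at a member with an IDR of up to 0.01 was missing from the pooled thresholded list.

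Below the threshold of the pooled list, the 10 members with the highest ranked entries within 250 bp had signals of 37.49 to 48.86. Replicate values are the highest entry of that replicate within the same window, and its summit need not be the pooled one. At mir-8192, in an intron of flcn-1, the signal was 28.63 in replicate 1, 21.75 in replicate 2 and 48.86 in the pooled list (IDR 0.519). At mir-80, of the mir-58 family, it was 37.13, 16.52 and 48.71 in the same order (IDR 0.468). At mir-62 it was 21.01, 25.56 and 47.83 (IDR 0.0847), and a thresholded peak of 62.17 lay 768 bp past the 5′ end of that gene. These 3 pooled signals were close to that of mir-8190, which passed the threshold with 48.62. At mir-57 the values were 30.54, 15.66 and 45.9 (IDR 0.0893), and mir-86 and mir-8211 shared 1 entry with 28.54, 19.77 and 45.32 (IDR 0.0401). The others were mir-2, given before, mir-1830 with a pooled signal of 38.4, mir-42 with 38.33 and mir-5595 with 37.49. In the pooled ranked list the IDR of these 10 entries, at 0.0401 or above, was over the threshold in each case. That of mir-2 was 0.789 there, but 0.00123 in the ranked list that compares the replicates with each other, and the conservative list held its peak. In that comparison the IDR was also lower at mir-8192 (0.0102), mir-80 (0.0619), mir-86 and mir-8211 (0.0171) and mir-5595 (0.222). It was higher than in the pooled list at mir-57 (0.0986), mir-1830 (0.393) and mir-42 (0.173).

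**Figure D5:**
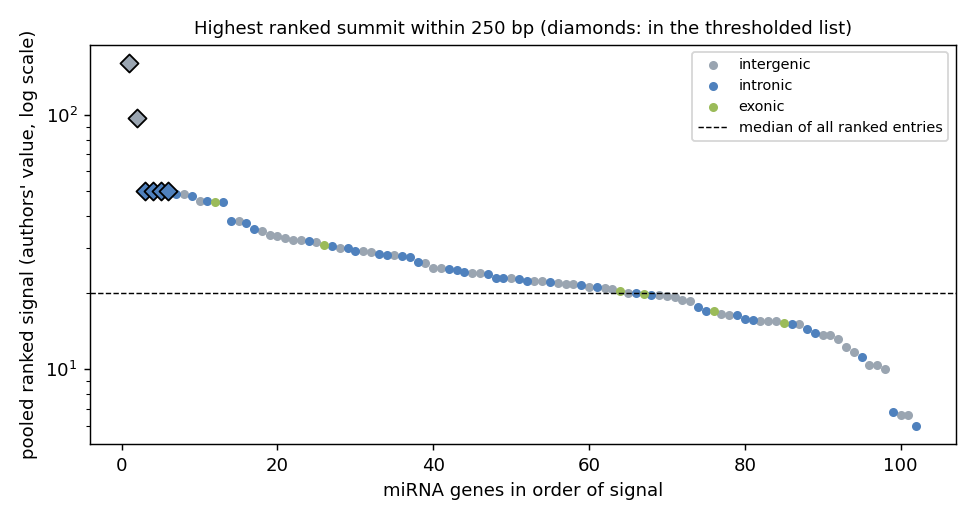
Highest pooled ranked signal (the authors' value, log axis) within 250 bp of each of the 102 members that had such an entry, in order of signal and coloured by setting; diamonds mark the 6 members whose entry is in the thresholded list and the dashed line is the median of all ranked entries, 19.9. Most members lie near that line, without a gap below the diamonds of the mir-35 cluster at 50.18.

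Entries below the threshold were also read at some members of the let-7, lin-4 and muscle and neuron lists. At let-7, whose annotated gene is 1732 bp long, the highest pooled entry had 16.92 (IDR 0.904), and the highest entries of the replicates lay at other places in the gene, with 11.33 in replicate 1 and 10.39 in replicate 2. The pooled entry of lin-4 lay at -386 bp from its 5′ end, with 19.55 (IDR 0.772). Replicate 2 had an entry of 11.03 at -379 bp, and the highest upstream entry of replicate 1, 16.44, lay at another place, at -654 bp. Upstream of mir-1, a gene active in muscle, the pooled entry had 42.16 at -480 bp (IDR 0.528), with 20.63 at -441 bp in replicate 1 and 19.52 at -516 bp in replicate 2. In the ranked list that compares the replicates with each other, the IDR was 0.068 for this mir-1 entry and 0.591 for the lin-4 entry. At mir-124, a neuronal miRNA, the entry within 250 bp had 15.79 (IDR 0.904). Upstream of mir-71 the pooled entry had 25.28 at -395 bp (IDR 0.149), and replicate 2 had 29.05 at -359 bp (IDR 0.0386). The highest upstream entry of replicate 1 was 9.42 at -873 bp (IDR 0.704), a different site. A gene without a thresholded peak is not thereby shown to be free of FLT-1, since the depth of the libraries is unknown.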

How the data were processed

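The sources were 8 ChIP-seq peak lists on ce11 (WBcel235) deposited by the authors: thresholded and ranked lists of each single replicate, and pooled, conservative and replicate-against-replicate lists for both. Per the deposited file lists the ranked lists are ordered by IDR before its threshold, and the thresholded lists derive from them and from 1 further file whose content is unknown. The authors' signal column has no stated scale. The deposited score column follows 125 times log2 of 1/IDR, at most 1000, with a difference of at most 1.0 in the 4 ranked lists, and the deposited −log10 IDR column gave the IDRs. The deposited summit offset gave the summit. For aligner and peak caller, versions included: not given in the sources used here. No read counts are given, so depth is unknown.

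Summits were set against Ensembl release 115 genes, and sequences were read from RefSeq, in Python 3.11.15 with NumPy 2.4.6, SciPy 1.17.1 and Matplotlib 3.10.9. The 20 mitochondrial peaks of replicate 2 were not counted. A locus joined members on 1 strand within 10 kb. The window counts were tested on simulated data. No significance test was made, since there is 1 group. Genes were named if they had a thresholded summit in either window in any list, were among the 10 highest ranked entries within 250 bp without a pooled thresholded one, or belonged to the family lists; F09A5.15, mir-4806, mir-4921, mir-4937 and mir-8189 fall outside this rule and were chosen after their values were seen. The members and lists were chosen with earlier results of these data known. The labels call the replicates biological. Alternatives were other lists, windows, settings and units. A mature sequence of 1 member is not reported here.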

Additional observations from a re-analysis of the deposited data

How the results depend on the processing

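The count of members within 250 bp was 6. It became 2 for peaks above the median signal, 12 for any base of the peak, 14 for a window of 500 bp, 3 when a summit was given to its nearest gene alone and 3 when loci were counted, and 4 to 5 in the lists of single replicates. The count upstream was 14. It became 4 above the median signal, 7 in the conservative list, 9 within 500 bp, 7 when the window was cut at the next gene, 8 when loci were counted and 6 in the downstream window, and 4 to 11 in single replicates, 4 being replicate 1. With a host on the same strand, the 2 intergenic members became 10 and the 14 intronic ones 6, and intronic members ranged from 3 to 10 over the replicates. The signal at mir-5549, 160.3 in the pooled list, was 75.34 to 81.58 in the replicates, whose lists have lower medians. Counting loci and the downstream window were added after the data had been seen. Of 39 recomputed values, 22 stayed within 1.5 times the main count. Among them were the 102 with a ranked summit and the count of 3 with a peak in a coding promoter or near a tRNA gene. In replicate 1 that count of 3 held mir-1829.3 in place of mir-8201. The 39 include the 2 replicate signals at mir-5549, which were set down as moved without this comparison. No paired analysis was possible because there is 1 group. A peak over several genes or a shared promoter cannot be assigned from position, and 2 replicates without depth limit what a missing peak shows.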
